A study of Homo sapiens with 6 samples.

Results

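N6-methyladenosine (m6A) is a methylated base of messenger RNA, and its peaks are described here where they are labelled 3' UTR and cross at least 1 splice junction. A peak was taken when its annotation read exactly 3' UTR and it was made of 2 or more separate blocks, so that its bases lie on either side of a gap in the genome. By this rule 5763 of 42618 listed peaks were members, in 4867 genes, and they made up 31.8% of the 18116 listed 3' UTR peaks. In the list of peaks tested between treatments, 3738 of 19979 peaks were members, in 3310 genes. The cells were of the Kasumi-1 line, grown from a human acute myeloid leukaemia, with the RUNX1-RUNX1T1 fusion gene, labelled wild type. They were given 100 uM CoCl2, which mimics low oxygen by stabilising HIF-1, together with 10 nM echinomycin, which keeps HIF-1 off DNA, for 24 hours. Poly(A) RNA fragments were pulled down with an m6A antibody (IP), and the RNA from before the pulldown (input) was sequenced too, with 3 IP and 3 input libraries from 3 biological replicates. The authors compared this group with CoCl2 alone, whose libraries were not analysed here, so the comparison asks what echinomycin adds to CoCl2.

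In messenger RNA, m6A is placed by a complex built around METTL3 and METTL14 and is densest around the stop codon and in the last exon. The 3' UTR of most transcripts lies within that last exon, so a peak that starts in the coding part of the exon before it and runs over the stop codon crosses a junction. Splicing leaves an exon junction complex just before each junction, and m6A is known to be sparse close to junctions inside the coding part of a transcript. Proteins of the YTH family read the mark and influence how long a transcript lasts and how much it is translated.

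No genome came with the tables, so the bases of the peaks are not printed, but short RNA genes inside members can be shown by sequence. By the positions in the authors' FPKM table, 20 microRNA genes lay wholly inside a member. In the peak list 14 of 16 such pairs had the microRNA in a gap between blocks, where an intron would be, and 2 in a block. The microRNAs within a block are shown because these short genes lie in the bases that the peak counts, beside miR-103a-3p, whose gene MIR103A2 lies in a gap. Capitals mark the seed, bases 2 to 8 of the mature RNA, and the sequences are from RefSeq (GRCh38.p14).
hsa-miR-922: gCAGCAGAgaauaggacuacguc
hsa-miR-5006-5p: uUGCCAGGgcaggagguggaa
hsa-miR-4800-3p: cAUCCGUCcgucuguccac
hsa-miR-6866-3p: gAUCCCUUuaucuguccucuag
hsa-miR-103a-3p: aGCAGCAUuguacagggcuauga
The peak over MIR922, on chromosome 3 at 197674107 to 197675439, was lower with echinomycin, by a log2 fold change of -0.70 in the authors' deposited table. Both members over MIR5006 on chromosome 13 were also lower in the authors' deposited table, at -0.94 and -1.07. The peak holding MIR4800 had a fold enrichment of 3.61 and that holding MIR6866, assigned to CASC3, one of 2.50. The member with MIR103A2 in its gap had an enrichment of 2.96. In 10 of these 16 pairs the peak was assigned to the microRNA gene itself, although its blocks reached far beyond the hairpin. For a microRNA within a block, peak signal from a host transcript and from a microRNA precursor cannot be told apart here. For one in a gap, the bases that the peak counts do not include the hairpin.

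The typical member was 1 short block joined to 1 long one. Of the 5763 members 3991 (69.3%, exact 95% interval 68.0 to 70.4) had 2 blocks, 1258 had 3, 346 had 4 and 168 had 5 or more. Their exonic length, the sum of their blocks, had a median of 541 bases (quartiles 358 and 839), against 301 (180 and 567) for 3' UTR peaks of a single block. The gaps had a median of 1523 bases (quartiles 543 and 3582), and 685 of 8343 gaps (8.21%) reached 10000 bases. The smallest block was often slight, with a median of 55.0 bases and fewer than 25 bases in 1400 members (24.3%). A further 41 gaps were under 30 bases, too short for a usual intron. These intervals, here and below, are Clopper-Pearson intervals and cover counting error only.

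Read from 5' to 3', members lay mostly beyond the junction. Orientation was used for the 4477 members that fell wholly within their assigned gene with no gene of the other strand holding them. Among 3082 of these with 2 blocks, the 3' block held a median of 84.3% of the bases (quartiles 66.3 and 93.3). Listed 5' UTR peaks of 2 blocks had a median of 48.7% (n = 2509) and peaks labelled exon 59.9% (n = 2120). The 3' block was the larger one in 83.7% of members (exact 95% interval 82.4 to 85.0), in 48.7% of 5' UTR peaks (46.7 to 50.7) and in 58.1% of exon peaks (55.9 to 60.2). The 3 intervals do not overlap. Over all block numbers, the midpoint of the spliced peak lay in the last block in 75.9% of members, against 38.2% of 5' UTR peaks and 47.2% of exon peaks. The midpoint was a median of 153 bases from the nearest junction in members, 71.0 in 5' UTR peaks and 71.5 in exon peaks.

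**Figure D1:**
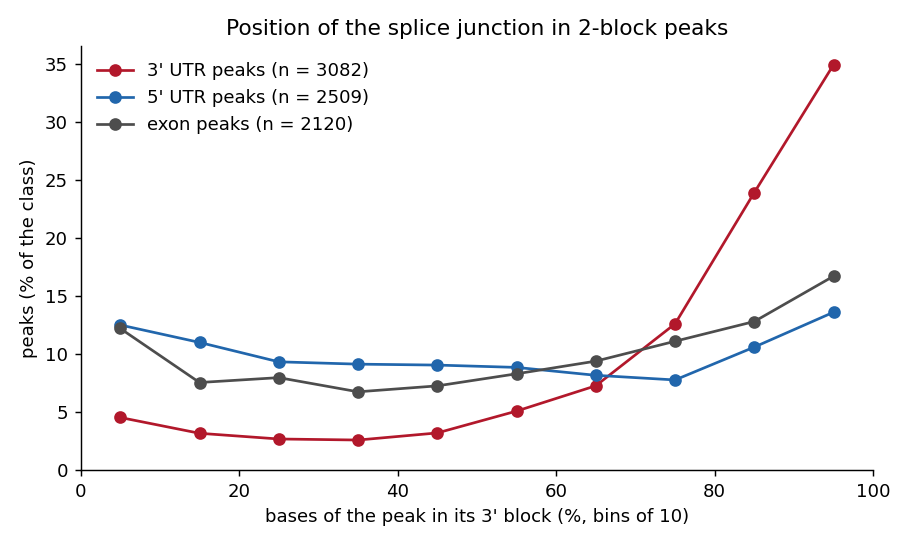
Share of a peak's bases that lie in its 3' block (x axis, percent, in bins of 10) for listed peaks of 2 blocks, as percent of the peaks of each class (y axis). In the highest bin lie 34.9% of the 3' UTR peaks, 13.6% of the 5' UTR peaks and 16.7% of the exon peaks.

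The 3' UTR label did not place every member at the end of its gene. Of the 5149 members wholly within their assigned gene, 467 (9.07%) ended at the gene's last base and 1369 (26.6%, exact 95% interval 25.4 to 27.8) within 1000 bases of it. For single-block 3' UTR peaks these shares were 18.0% and 44.6% (43.7 to 45.5) of 11853. The peak list put 24.9% of members at a distance of 0 from the start of their assigned transcript. Another 574 members lay wholly in a gene other than the assigned one and 40 in none of the genes of the table. RAD50, a protein of DNA break repair, held 7 listed members with enrichments between 1.85 and 4.66, at 2.20 ± 0.208 FPKM (SD, n = 3). They overlap and fill only 4 separate places, all of them also within the gene AC116366. CEP290, a protein of the ciliary transition zone, GCC2, a golgin, and SETD5, a chromatin protein, had 5 members each at 5 separate places. PPFIA1, a liprin, had 5 members at 2 places. Places were counted by genomic span, gaps included. In PPFIA1, 1 member has a gap of 80463 bases, and other members lie inside that gap without sharing its bases. In SETD5 the enrichment ranged from 1.60 to 10.0 across its members, which are separate places of 1 gene and not replicates. Most genes were simpler, with 1 member in 4133 genes, 2 in 609 and 3 or more in 125.

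Members with the highest fold enrichment, IP over input, in genes of at least 5 FPKM lay in transcripts of mixed function. The fold enrichment was computed by the authors, 1 value to a peak, and carries no replicate error. SYMPK, a scaffold of the mRNA 3' end cleavage machinery, led with 42.8 for a peak of 3 blocks on chromosome 19 at 45815410 to 45816489. Its input level was 7.61, 6.77 and 7.12 FPKM in the 3 libraries. STAC3, an adaptor known from muscle excitation, followed with 34.8 and stood at 25.3, 30.2 and 25.2 FPKM. The libraries lay close together for SYMPK, and library 2 was the highest for STAC3. MEX3D, an RNA-binding protein, had 28.9, and ICAM2, an adhesion molecule of blood and vessel cells, had 27.1 on chromosome 17 at 64002594 to 64003818. ARRB1, a beta-arrestin that shuts off receptors, had 24.7, and RNF25, a ubiquitin ligase, had 24.3. DAPK3, a death-associated protein kinase, had 23.6, DOHH, which completes hypusine in the translation factor eIF5A, had 22.3, and SPPL2B, a protease within membranes, had 21.9. The DAPK3 peak counts as a member only through a gap of 1 base. HPS4, at 26.1, is also uncertain, since its peak lay wholly in the neighbouring gene ASPHD2 and not in HPS4.

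**Figure D2:**
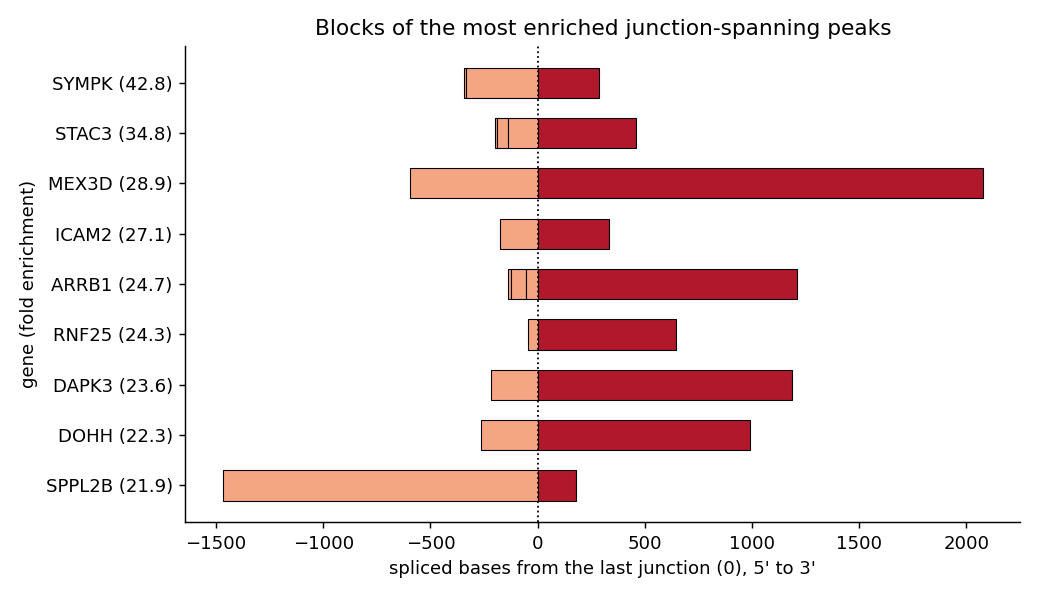
Blocks of the 9 most enriched members that could be oriented, in spliced bases from the last junction at 0 (x axis), with each gene's fold enrichment in brackets (y axis). In 7 of the 9 the block after the last junction is longer than all before it, with SYMPK and SPPL2B as the exceptions.

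Below that expression limit stood larger ratios. The highest of all, 295, belonged to TRAPPC10, part of a complex that tethers vesicles, at 3.77, 3.45 and 3.68 FPKM. It had a 5' block of 6 bases before a 3' block of 1822, so its membership rests on those 6 bases. TAL1, a transcription factor of blood stem cells and red cells, had 87.6 at 0.937 ± 0.110 FPKM (SD, n = 3), and KLF1, a red-cell transcription factor, had 69.9 at 0.406 ± 0.0440 FPKM (SD, n = 3). How many input reads stand behind these ratios is unknown.

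Members as a whole were more enriched than single-block 3' UTR peaks, and at matched length slightly less. The median fold enrichment was 5.24 over members (quartiles 3.18 and 7.81), 3.99 over single-block peaks and 4.53 over all listed peaks. At an authors' FDR under 0.05 stood 96.4% of members, 88.9% of single-block peaks and 87.4% of all peaks. Enrichment rose with length in both kinds. From 151 to 300 bases the medians were 2.66 in members and 2.88 in single-block peaks. From 301 to 450 bases they were 3.77 (95% interval of the median 3.63 to 3.99) and 4.14 (4.01 to 4.33). From 601 to 900 bases they were 6.35 (6.17 to 6.52) and 6.71 (6.52 to 6.92), and above 900 bases 7.51 and 7.74. Members thus lay below single-block peaks in each of the 6 length classes, with intervals apart from 301 to 600 bases and touching or overlapping in the other classes. Input levels moved beside this, with a median of 4.10 FPKM in members and 2.88 in single-block peaks from 451 to 600 bases, and their part in the difference was not tested.

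**Figure D3:**
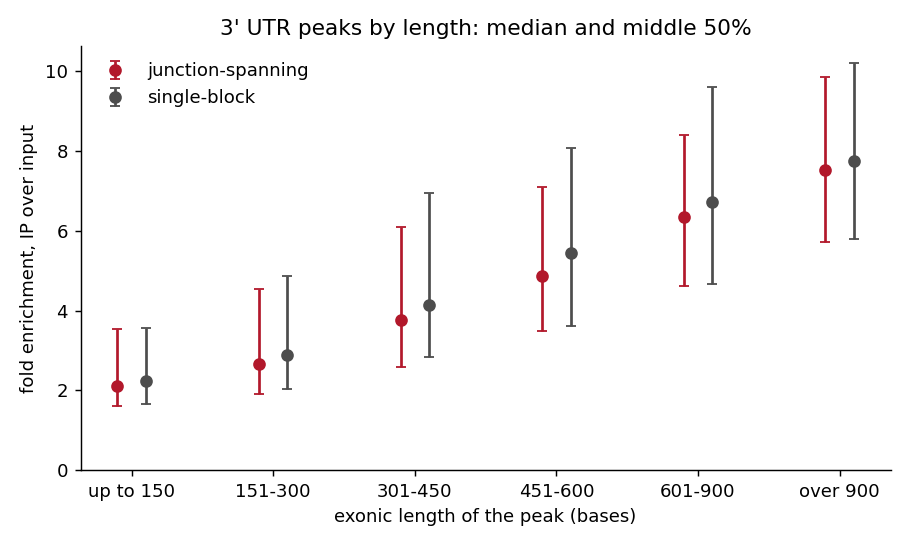
Fold enrichment, IP over input (y axis), by exonic length in bases (x axis) for junction-spanning and single-block 3' UTR peaks, with points at the median and bars over the middle 50% of peaks. Both kinds climb with length, from medians of 2.12 and 2.23 up to 150 bases to 7.51 and 7.74 above 900.

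Within members of similar length, enrichment was lower where the junction lay near the middle. Among members of 301 to 600 bases the median was 3.38 (95% interval 3.17 to 3.65, n = 278) where the midpoint was under 50 bases from a junction. It was 3.73 from 50 bases, 4.40 from 100 bases and 5.29 (4.90 to 5.70, n = 282) from 200 bases. Median length rose beside it from 420 to 540 bases and median input fell from 5.00 to 4.03 FPKM, and their part was not tested. By number of blocks the medians in the same length range were 4.38 (4.21 to 4.55) for 2, 4.21 (3.86 to 4.48) for 3 and 3.62 (3.09 to 4.66) for 4, with overlapping intervals.

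With echinomycin added to CoCl2, more members lost enrichment than gained it. The authors' deposited table held 2328 members lower (62.3%, exact 95% interval 60.7 to 63.8) and 940 higher (25.1%, 23.8 to 26.6) at the authors' FDR of 0.05, with 470 not past it. Over all tested peaks of the authors' deposited table, a share of 68.9% passed in either direction, 45.8% lower and 23.1% higher. Of single-block 3' UTR peaks in the authors' deposited table, a share of 48.2% was lower and 21.4% higher. Among changed peaks of the authors' deposited table, 71.2% of members were lower (69.7 to 72.8), against 69.2% of single-block peaks and 66.4% of all. Most changes were small. The median log2 fold change of members in the authors' deposited table was -0.44 (quartiles -0.73 and 0.31). Past the FDR of 0.05 and by 2-fold or more, 145 members rose and 349 fell in the authors' deposited table. These were 3.88% and 9.34% of members, against 6.01% and 11.2% of all tested peaks by the same 2 limits. The authors' deposited table gives 1 value per peak, and no source used here says if its FDR reflects replicate spread.

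The direction is read from the order of conditions in the table's name, as the combined treatment over CoCl2. It was set against the listed peaks of the group with echinomycin, in which peaks lost with echinomycin should be missing more often. Over all peaks of the authors' deposited table, 4 of 52 at a log2 value of -4 or lower overlapped a listed peak, and 68 of 68 at 4 or higher did. Among members of the authors' deposited table, 31 of 42 (73.8%) below -2 overlapped a listed peak of their gene, and 26 of 28 (92.9%) above 2. Of all tested members 97.0% overlapped a listed peak of their gene, and 605 had the same ends as a listed member.

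Among short members higher calls outnumbered lower ones, and long members nearly all fell. Part of this held for all tested peaks of the authors' deposited table, with 32.9% higher and 17.6% lower from 151 to 300 bases. From 301 to 450 bases all tested peaks were 33.3% higher and 33.7% lower, and above 900 bases 87.7% were lower. Of 548 members of 301 to 450 bases in the authors' deposited table, 50.9% were higher and 32.3% lower, while single-block peaks of that length were 27.7% higher and 42.8% lower. From 151 to 300 bases 47.5% of members were higher in the authors' deposited table, against 30.8% of single-block peaks. From 451 to 600 bases the shares higher in the authors' deposited table were 36.6% and 22.7%. In the authors' deposited table the median log2 fold change of members went from 0.52 at 151 to 300 bases through 0.31 and -0.33 to -0.47 at 601 to 900 bases. Above 900 bases 89.0% of 1267 members were lower in the authors' deposited table, close to the 89.5% of single-block peaks. Up to 600 bases, members thus held more higher calls than single-block peaks of the same length, and the intervals of the 2 kinds did not overlap from 151 to 600 bases. Peak length, its enrichment and its fold change come from overlapping reads, and the part of each in the others was not tested.

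**Figure D4:**
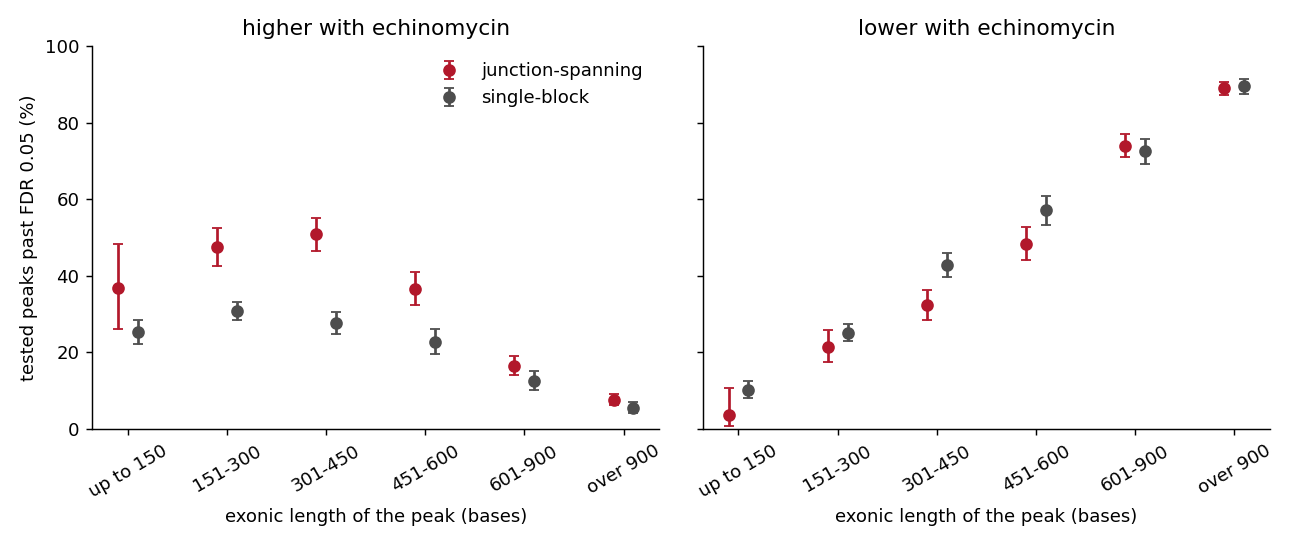
Percent of tested peaks that were higher (left) or lower (right) with echinomycin in the authors' deposited table at its FDR of 0.05 (y axis), by exonic length in bases (x axis), with exact 95% intervals. Junction-spanning peaks lie above single-block peaks on the left at every length, most clearly at 301 to 450 bases with 50.9% against 27.7%.

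How close the junction lay to the middle of a peak went with the direction too. Of 113 members of 301 to 600 bases with a midpoint under 50 bases from a junction, 66.4% (exact 95% interval 56.9 to 75.0) were higher and 20.4% lower in the authors' deposited table. From 50 to under 100 bases the authors' deposited table had 62.1% higher and 24.8% lower. From 100 to under 200 bases it was 45.0% and 38.8% in the authors' deposited table, and from 200 bases 27.3% (20.4 to 35.0, n = 154) and 53.2%. In genes of at least 5 FPKM the authors' deposited table had 73.5% higher nearest the junction and 46.6% farthest from it. Of all tested peaks in the authors' deposited table, 33.3% were higher from 301 to 450 bases and 27.4% from 451 to 600. Exactly 2 blocks were found in 46 of the 113 nearest members and in 150 of the 154 farthest. Of these, 56.5% and 28.0% were higher in the authors' deposited table. Median exonic length rose along the same series from 418 to 540 bases, median listed enrichment rose from 3.08 to 4.84, and median input fell from 7.82 to 4.73 FPKM. The part of block number, length, enrichment and input in the trend was not tested.

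**Figure D5:**
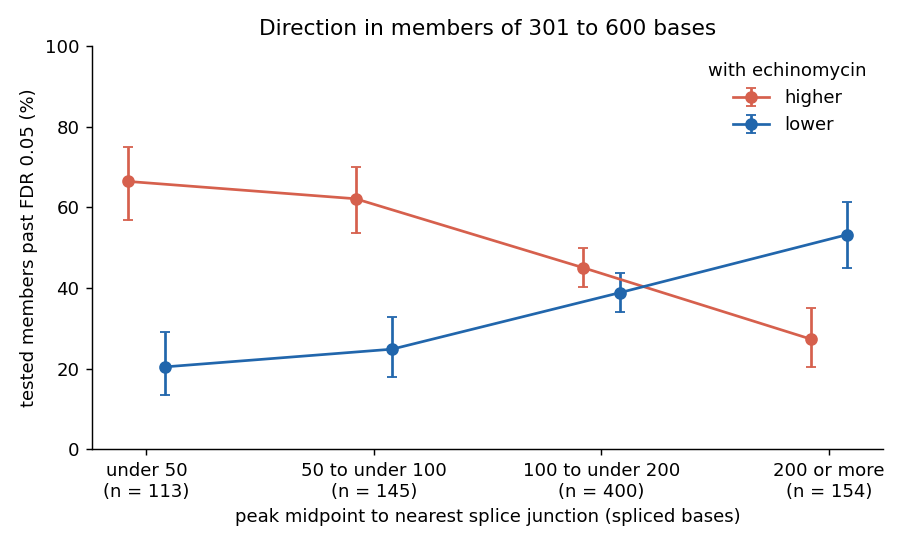
Percent of tested members of 301 to 600 bases that were higher or lower with echinomycin in the authors' deposited table (y axis), by the distance of the peak's midpoint from the nearest splice junction in spliced bases (x axis), with exact 95% intervals. Higher calls go from 66.4% to 27.3% and lower calls from 20.4% to 53.2%.

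The share of members called higher also climbed with expression of the gene, as it did in single-block 3' UTR peaks. In genes under 1 FPKM 10.2% of members were higher and 60.9% lower in the authors' deposited table, against 6.67% and 38.9% of single-block peaks. In genes of 10 to 30 FPKM it was 34.1% and 62.1% in the authors' deposited table, against 32.1% and 52.2%. Over all tested peaks of any expression the authors' deposited table had 23.1% higher and 45.8% lower. From 30 FPKM higher and lower calls were about equal in the authors' deposited table, at 48.7% and 48.1% of 189 members, while single-block peaks there were 36.8% and 50.1%. Members not past the FDR went from 28.9% under 1 FPKM to 3.17% from 30 FPKM in the authors' deposited table. For single-block peaks this share went from 54.4% to 13.1%. Among changed peaks of the authors' deposited table, lower calls went from 85.6% to 49.7% in members and from 85.4% to 57.7% in single-block peaks. The part of the uncalled share in the climb was not tested. Genes with a member had a median input of 4.17, 4.22 and 4.09 FPKM in the 3 libraries. Levels of CoCl2 alone were not used here, so a change in RNA level was not set against these changes in enrichment.

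The members that rose most in expressed genes were mostly short, and several of their identities are uncertain. SUGP1, a splicing factor with a G-patch, had a log2 fold change of 1.96 in the authors' deposited table for a peak of 240 bases on chromosome 19 at 19303896 to 19305737. Its input level was 27.8, 28.6 and 26.0 FPKM. PCGF1, a Polycomb ring finger protein, rose by 1.90 in the authors' deposited table at 5.61, 5.97 and 7.15 FPKM. EAPP, an E2F-associated phosphoprotein, stood at 1.87 and PHKG1, a subunit of phosphorylase kinase, at 1.99 in the authors' deposited table. The first 3 of these had a log10 FDR of -31.3, -32.2 and -32.6 in the authors' deposited table, and PHKG1 one of -2.82. APAF1, which assembles the apoptosome, stood at 2.20 in the authors' deposited table at 11.0, 10.4 and 10.2 FPKM, but ANKS1B, a gene of the other strand, holds the same bases. Other uncertain names of the authors' deposited table were NOMO3 (4.98, log10 FDR -1.71) and CDK11B (2.06), which have near-identical copies, NDE1 (2.84, log10 FDR -1.32), held also by MYH11 of the other strand, and ACAD11 (1.83), held also by a readthrough gene. FCGR1A (1.95 in the authors' deposited table) lay wholly in H2BC18 and not in its assigned gene. Membership rests on a block of 3 bases in EAPP and of 2 bases in NDE1.

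Among the members with the lowest values the support by FDR was uneven. HNRNPR, an RNA-binding protein of the splicing machinery, had the lowest value among expressed genes, -4.05, in the authors' deposited table with a log10 FDR of -1.43, at 6.69, 6.71 and 6.38 FPKM. A second HNRNPR member fell by only 0.37 in the authors' deposited table, with a log10 FDR of -20.0. CEP43, a centriolar protein, stood at -3.52 (log10 FDR -4.38) and BRAF, a kinase of the MAPK pathway, at -2.39 (-1.74) in the authors' deposited table. Stronger by FDR were MDH2, the mitochondrial malate dehydrogenase, at -2.60 (-16.2), DNAH1, a dynein heavy chain, at -2.26 (-21.2) and ZNF586, a zinc finger protein, at -1.99 (-20.1) in the authors' deposited table. MDH2 was the best expressed of these, at 27.2, 29.1 and 27.8 FPKM, and its 448 bases lay almost wholly after the junction, in a 3' block of 424. ARMH1 had -2.17 in the authors' deposited table. SULT1A4 (-2.99 in the authors' deposited table) has near-identical copies, RFX2 (-2.40) shares its bases with ACSBG2 of the other strand, and BTBD1 (-2.0) lay in another gene.

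Genes that place and read m6A often carried members. The lists of genes below were drawn up with earlier results known, so they are described and not tested, and 28.8% of all expressed genes had a member. A gene stands for its member of lowest authors' p, and over the 3310 genes with a tested member so represented 63.5% were lower and 25.4% higher in the authors' deposited table. By any tested peak of lowest p, 52.7% of all genes in the authors' deposited table were lower and 22.6% higher. Of 9 expressed writers, 6 had a member, among them METTL14, the partner of METTL3, with an enrichment of 8.53, METTL16, a separate methyltransferase, with 8.36 and VIRMA, the scaffold that guides the complex to 3' UTRs, with 7.35. ZC3H13, which anchors the complex in the nucleus, had a member of 11 blocks and 4010 bases at 5.76. In 3 of the 6 the listed member rests on a block under 25 bases, of 24 bases in METTL14, 6 in RBM15 and 1 in VIRMA. The 3 tested writers were all lower in the authors' deposited table, with METTL16 at -0.88, ZC3H13 at -0.75 and VIRMA at -0.72. Their members had 1170, 959 and 390 bases, and most members over 900 bases were lower. The tested members of ZC3H13 and VIRMA were not the listed ones described above but lay elsewhere in the gene. METTL16 stood at 2.62, 2.59 and 2.53 FPKM in the 3 input libraries. Of 13 expressed readers 7 had a member, with the 3 YTHDF proteins, which bind m6A in the cytoplasm, at 6.10 (YTHDF1), 8.16 (YTHDF2) and 7.09 (YTHDF3). The YTHDF2 peak joins a 5' block of 1421 bases to a 3' block of 280 across a gap of 24942. All 3 were lower in the authors' deposited table, YTHDF2 at -0.67, YTHDF1 at -0.45 and YTHDF3 at -0.40. Higher were IGF2BP3, a reader that stabilises transcripts, at 0.67 and PRRC2C, a relative of the reader PRRC2A, at 0.35 in the authors' deposited table. ALKBH5, the expressed eraser of the pair, had no member.

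Splicing and RNA surveillance genes changed both ways. Of 13 expressed SR proteins, which bind exons and recruit the spliceosome, 6 had a member, and of the 4 tested 2 were lower and 1 higher in the authors' deposited table. SRSF8 stood at -1.03, SRSF1 at -0.51 and SRSF4 at 0.09 in the authors' deposited table. Of 23 hnRNP genes 8 had a member, with HNRNPA2B1 (0.31) and PTBP3, a splicing repressor (0.58), higher and TARDBP (-0.45) lower in the authors' deposited table. Members in genes of the exon junction complex and its partners, in 5 of 11 expressed genes, were lower in ACIN1 (-0.59) and PYM1, which takes the complex apart (-0.41), and higher in PNN (0.32) in the authors' deposited table. In nonsense-mediated decay, which destroys transcripts with a junction well after the stop codon, 4 of 13 genes had a member. There SMG1, the kinase of UPF1, was lower (-0.57), as was DHX34, a helicase (-0.90), and UPF3B, which links decay to the junction complex, higher (0.36) in the authors' deposited table. UPF1, its central helicase, had a listed member with an enrichment of 5.19.

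Genes of TNF and NF-kB signalling fell together. A member was listed for 13 of 21 expressed genes (61.9%), and all 10 tested were lower in the authors' deposited table, their median log2 fold change being -0.55. RIPK1, the kinase that decides between survival and death at the TNF receptor, stood at -0.84 in the authors' deposited table. Its input level was 22.0, 23.5 and 22.1 FPKM. TRAF6, a ubiquitin ligase of this pathway, stood at -0.79, and TNFAIP3, which switches NF-kB off, at -0.55 in the authors' deposited table. TNFAIP3 stood at 23.2, 23.4 and 24.3 FPKM. These members were long, with a median of 1048 bases, and of all members over 900 bases 89.0% were lower in the authors' deposited table. The highest enrichments of the list were 13.3 for TRAF3, 12.9 for TRAF1 and 11.0 for TRADD, all adaptors of TNF family receptors.

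Other stress lists were mixed. Of 6 tested genes of the endoplasmic reticulum and integrated stress response, 5 were lower in the authors' deposited table, such as DNAJB9 (-0.83) and HERPUD1 (-0.65), both factors of protein quality control. EIF2AK1, the haem-sensing kinase of eIF2, was higher at 0.96 in the authors' deposited table. Of p53 and its targets 5 of 7 were lower in the authors' deposited table, with GADD45A, a growth arrest gene, at -0.62 and DDB2, a sensor of UV damage, at -0.49. Apoptosis genes split into 5 lower and 4 higher of 10 tested in the authors' deposited table. Lower were BCL2, which blocks cell death, at -0.74, its relative MCL1 at -0.41 and CASP8, an initiator caspase, at -0.31 in the authors' deposited table. Among the higher was APAF1 at 2.20 in the authors' deposited table, whose bases ANKS1B of the other strand also holds. The BCL2 member spans a gap of 151932 bases on chromosome 18.

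In the HIF and cell cycle lists more tested genes were higher than lower. Of 33 expressed HIF pathway and target genes 12 had a member, and of 8 tested 5 were higher and 3 lower in the authors' deposited table. TFRC, the transferrin receptor, was higher at 0.53 in the authors' deposited table. Lower were BHLHE40, a transcriptional repressor, at -0.53, PFKFB3, which drives glycolysis, at -0.40 and HK2, hexokinase 2, at -0.38 in the authors' deposited table. HK2 stood at 49.1, 41.8 and 43.5 FPKM and BHLHE40 at 38.6, 34.3 and 33.5, with library 1 the highest for both. In the cell cycle 6 of 9 tested genes were higher in the authors' deposited table, such as MCM4 (1.21) and MCM6 (0.71), subunits of the replicative helicase. MKI67, a marker of dividing cells, was lower at -0.69 and E2F3, which switches on S phase genes, at -0.66 in the authors' deposited table. MCM4 had 240 exonic bases and MKI67 2935.

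Blood and chromatin genes were lower about as often as genes with a member in general. Of 10 tested haematopoietic transcription factors 7 were lower and 1 higher, and of 9 tested chromatin regulators 6 were lower and 3 higher, in the authors' deposited table. CEBPE, which drives late granulocyte maturation, stood at -1.0 in the authors' deposited table, and its input level of 4.17, 7.47 and 6.55 FPKM varied more than most. FLI1 was lower at -0.33, GFI1, a repressor in myeloid cells, at -0.31 and RUNX1T1, the partner in the fusion gene of these cells, at -0.43 in the authors' deposited table. The tables do not separate the fusion transcript of RUNX1T1 from others. Of 30 expressed chromatin regulators 15 (50.0%) had a member, with TET1, an eraser of DNA methylation, at an enrichment of 11.4 and SIN3A, a corepressor scaffold, at 10.3. The membership of the TET1 peak rests on a 5' block of 4 bases. SIN3A was lower at -0.62 in the authors' deposited table. DNMT1, the maintenance DNA methyltransferase, was higher at 1.54 for a peak of 121 bases, and KDM5C, a histone demethylase, at 0.50 in the authors' deposited table. Of a partial list of ribosomal protein genes 4 of 36 (11.1%) had a member, the list's median level being 511 FPKM. RPS6 was higher at 0.95 and RPL9 at 0.56, while RPL13A was lower at -0.20 in the authors' deposited table.

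Within genes that had both kinds of 3' UTR peak, the junction-spanning peaks were more enriched at the median. The fold changes with echinomycin showed no clear shift between the kinds at the median, though single genes spread widely. In 2202 genes of the peak list the junction-spanning peaks had a median enrichment of 5.30 and the single-block peaks 3.73, with the junction-spanning ones above in 63.3%. The median log2 ratio was 0.36 (95% interval 0.31 to 0.44), and 0.22 when each kind was represented by its peak of lowest p. The junction-spanning peaks of these genes were also longer, with a median of 569 bases against 300, and the part of length was not tested. In 945 genes of the authors' deposited table the median difference in log2 fold change was 0.02 (95% interval -0.01 to 0.04, quartiles -0.40 and 0.39). In 404 of these genes both kinds were lower and in 132 both higher in the authors' deposited table. In 70 genes the junction-spanning peak was higher and the single-block peak lower in the authors' deposited table, and in 79 the reverse.

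Among the genes that split, BRD2, a reader of acetylated histones, had a member of 450 bases at 0.85 and single-block peaks at -0.77 and -0.73 in the authors' deposited table. Its input was 91.9, 90.8 and 92.8 FPKM. STMN1, which destabilises microtubules, had 0.72 for its member and -2.44 for its single-block peak in the authors' deposited table, at 36.5, 40.4 and 35.9 FPKM. PLIN2, a coat protein of lipid droplets, had 1.23 and -0.27, and LUC7L3, a splicing factor, 0.39 for its member of 6 blocks and -1.07 and -0.75 for its single-block peaks in the authors' deposited table. SMC1A, a cohesin subunit, had 0.86 for a member of 5 blocks and -0.81 for a single-block peak in the authors' deposited table. The reverse held for WDR82, a subunit of a histone methyltransferase complex, at -0.59 for its member and 0.41 for its single-block peak. It held also for OGT, the O-GlcNAc transferase, at -0.49 and 0.50 in the authors' deposited table. The single-block peaks of WDR82 and STMN1 had a log10 FDR of -1.8 and -2.66 in the authors' deposited table, against -78.5 and -196 for their members.

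Members of the same gene changed both ways in 70 of 376 genes (18.6%, exact 95% interval 14.8 to 22.9) with 2 or more tested members in the authors' deposited table. For single-block 3' UTR peaks of the authors' deposited table this was 145 of 1037 genes (exact 95% interval 11.9% to 16.2%), and for all tested peaks 1148 of 5010 (22.9%). CHD2, a chromatin remodeller, had a short member of 331 bases at 0.93 and a long one of 1349 bases at -0.61 in the authors' deposited table. PHF3, a regulator of RNA polymerase II, had 0.91 for 211 bases and -0.65 for 2519 bases in the authors' deposited table. RPL37, a ribosomal protein outside the partial list, had 0.87 for 301 bases and -0.87 for 435 bases in the authors' deposited table, at 528, 528 and 539 FPKM. In each of these 3 genes the shorter member rose and the longer one fell, and length was not compared over all 70 genes. The RPL37 members overlap in part, so some of their bases count in both.

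Markers matched the label of the cells in part. Of 12 genes of myeloid blasts 8 stood at 1 FPKM or more, with sums of 185, 198 and 180 FPKM in the 3 input libraries. Below 1 FPKM were AZU1 (mean 0.589), PRTN3 (0.266), CD38 (0.0235) and ELANE (0.0185). Sums were 5.13 to 6.41 FPKM over 3 B cell genes and 8.74 to 9.14 over 3 epithelial genes. Over 3 T cell genes they were 29.8 to 34.5, with 1 gene at 1 FPKM or more. Most of the T cell sum was CD3D (mean 32.1 FPKM) and most of the epithelial sum EPCAM (8.79). Sums over 12 and over 3 genes are not directly comparable. Of the myeloid markers 2 had a tested member, CEBPE and RUNX1T1, both lower in the authors' deposited table as given above. The depth of the libraries is unknown.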

How the data were processed

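The 6 samples were grouped by their titles. Per the submitters' processing notes, the tools were HISAT2, fastp, ChIPseeker and HOMER, and neither their roles nor versions are stated. For the peak caller, the build and the way replicates were combined, nothing was given in the sources used here. Per the file headers, the listed peaks carry a fold enrichment (a linear ratio, IP over input), a p-value and log10 forms of p and FDR, which count as a score since they reach minus infinity. For tested peaks the authors deposited a log2 fold change, its p-value and, as a score, its log10 FDR. FPKM was deposited by the authors per gene and input library, and 6 other per-sample columns of that table were not used. FPKM ratios between libraries showed no steps of whole reads (at most 0.976% of low genes shared a 1% bin), so depth is unknown and no interval uses it.

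Members, gene lists and the rule for named genes were chosen with earlier results of these data known. Repeated lines (16 in the peak list, 4 in the differential list) were dropped. Blocks, gaps and junctions came from the block sizes and starts, turned 5' to 3' by strand, and coordinates are as the tables give them, with no build named. Changed means an authors' FDR under 0.05, expressed a mean input FPKM of 1 or more. No test across samples was possible, so shares carry Clopper-Pearson 95% intervals and medians exact order-statistic intervals, both for counting error only. Named genes were the 10 most enriched members at 5 FPKM or more, the 10 highest and 10 lowest changed members of expressed genes, extremes of block number, gap and length, up to 4 changed and 3 listed members per list, the 5 genes with most listed members, m6A, junction complex and decay genes, TRAPPC10 and RUNX1T1, and genes with opposite changes. MicroRNA genes were placed by the FPKM table's positions, and 18 of 20 had a mature sequence used from RefSeq. The geometry was recovered for 2000 of 2000 simulated peaks, and the intervals covered the true value in 949 (shares) and 957 (medians) of 1000 simulated sets. Alternatives were block minimums of 25 and 50 bases, an FDR of 0.01, a 2-fold limit, 5 FPKM, leaving out each input library and, chosen after seeing the data, members wholly in their gene, 1 member per overlapping place, and classes of length, junction distance and expression. Python 3.11.15 was used with scipy 1.17.1, numpy 2.4.6, matplotlib 3.10.9 and pandas 2.3.3.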

Additional observations from a re-analysis of the deposited data

How the results depend on the processing

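No paired analysis was possible because the IP libraries have no values per replicate, so no comparison between IP and input could be fitted here. Of 73 alternative values of summary results, 53 stayed within the main value's interval, or within 1.5 times a count. Only the log2 values among them could change sign, and none of those did. With every block of 50 or more bases, 3091 listed and 2090 tested members remained of 5763 and 3738. With every block of 25 or more, median enrichment was 5.38, and the log2 ratio within genes 0.44. In genes of 5 FPKM or more, median enrichment was 4.53, the higher share 33.9% and the median log2 fold change of the authors' deposited table -0.34. That limit also raised the higher share to 66.2% at 301 to 450 bases, and to 46.6% at 301 to 600 bases far from a junction. At an FDR of 0.01 the authors' deposited table had 21.6% of members higher and 56.8% lower, 43.8% higher at 301 to 450 bases and 85.0% lower above 900. With a 2-fold limit as well as the FDR of 0.05 these were 3.88% and 9.34%. With only 2-block members the midpoint lay in the last block in 83.7%, a median of 172 bases from the junction. In them, 91.1% above 900 bases were lower and 56.5% of 46 members near a junction higher in the authors' deposited table. By the peak of lowest p, the log2 ratio of enrichment within genes was 0.22. Leaving out an input library moved the median level of member genes between 4.14 and 4.21 FPKM, and the list genes with a member stayed at 123. Of 93 named changed members, 6 did not pass an FDR of 0.01 (HNRNPR at -4.05, BRAF, BTBD1, NOMO3, NDE1 and SRSF4). Of 60 alternative counts per list, 1 moved by over 1.5 times. Overlapping members (708 listed, 412 tested) are not independent, and neither list gives an error per peak.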

Other observations

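The longest reaches of members lay in genes of mixed function. CDK11B, a kinase of transcription and splicing with a near-identical neighbour, had the member with the most blocks, 13, over 1253 exonic bases, with an enrichment of 5.39. EIF3A, the largest subunit of translation initiation factor eIF3, had 11 blocks and 2787 bases at 5.89. BOD1L1, a protein that protects replication forks, had the member with the most exonic bases, 5188 in 7 blocks, at 5.79 and 11.9 ± 0.402 FPKM (SD, n = 3). The longest gaps in genes of 5 FPKM or more were 85926 bases in CHCHD3, a protein of mitochondrial cristae, at an enrichment of 1.95, and 80463 in PPFIA1 at 6.52, where the peak did not pass the authors' FDR of 0.05. A gap of 67068 bases in RYBP, a Polycomb protein, had an enrichment of 5.21. The member with a gap of 67246 bases assigned to KDM1A lay wholly in another gene. RPS10-NUDT3, a readthrough gene that shares bases with NUDT3, was the least even of these between libraries, at 43.1, 26.8 and 8.42 FPKM, with a member of 5 blocks at 1.90.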
